A study of Mus musculus with 18 samples.

Results

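Livers of obese mice that received daily NAD+ (HFN) were compared with livers of lean chow-fed mice (CD) in the middle of the night, at zeitgeber time 18 (ZT18). The comparison takes 3 HFN and 3 CD arrays of the 18 arrays in the series, chosen by their labels, and sets aside all control probe sets, which left 65956 transcript clusters to test. All animals were male C57BL/6J mice that were 4 weeks old on arrival, ate freely under a light-dark cycle and stayed on their diet for 11 weeks. HFN mice ate a high-fat diet with 53% of its calories from fat and, over the last 3 weeks, received 50 mg/kg of NAD+ by intraperitoneal injection each day at ZT11, shortly before lights off. CD mice ate chow with 18% of its calories from fat and, per the study, received saline. Further groups serve only as side values, namely HF mice, which ate the same high-fat diet and were injected with saline at ZT11, and the livers of all 3 kinds of mice taken at ZT6, in the middle of the day. HFN and CD mice thus differ in both diet and NAD+, and the difference between them holds the 2 together. Each array measured 1 liver, and the p-values of the linear fit rest on the spread between mice within the 6 groups, pooled over all 18 arrays. They do not cover the spread between repeats of the experiment.

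The liver takes up fatty acids, burns them in mitochondria and peroxisomes, stores them in lipid droplets or exports them in lipoproteins. Fatty acids bind the nuclear receptor PPARA, which induces genes of fatty acid uptake, omega-hydroxylation and oxidation. NAD+ is the electron acceptor of that oxidation and the co-substrate of sirtuins, and its hepatic level follows the circadian clock. Mice feed mainly at night, so ZT18 falls within their feeding phase. In bulk liver RNA, fewer cells of a type and less RNA per cell cannot be told apart.

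Of the 6 arrays, 3 stood apart from the rest. Replicate 1 of the HFN mice at ZT18 held transcripts of other cells at a level seen on none of the other 17 arrays. The adipocyte hormone Adipoq was 6.1 there, against 3.99 to 4.30 on the others (log2 signal, as for every level below), and the B-cell marker Ms4a1 was 8.67, against 3.88 to 4.22. Retn and Jchain reached 8.54 and 7.78 on this array, and the lysozyme gene Lyz2, a marker of myeloid cells, was 14.25, 9.96 and 10.42 on the 3 HFN arrays, against 9.70, 9.83 and 9.12 on the CD arrays. None of these 5 genes passed the test. Replicates 2 and 3 of the CD mice at ZT18 had raised signal in the negative-control probe sets. The median of these controls was 4.58, 4.59 and 4.65 on the HFN arrays and 4.67, 4.91 and 4.91 on the CD arrays, a difference of -0.224 (exact permutation p = 0.1, two-sided, the smallest that 3 against 3 arrays can give). The nuclear RNA Neat1 was 7.73, 7.34 and 8.11 on the HFN arrays and 8.08, 15.14 and 15.16 on the CD arrays. Counts of calls are therefore given also without HFN replicate 1 and without both of these CD arrays. Some of the genes that lose their call in that way are named beside their values, and genes without such a note can lose it too. The part that these arrays play in a result was not tested beyond those values.

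**Figure D1:**
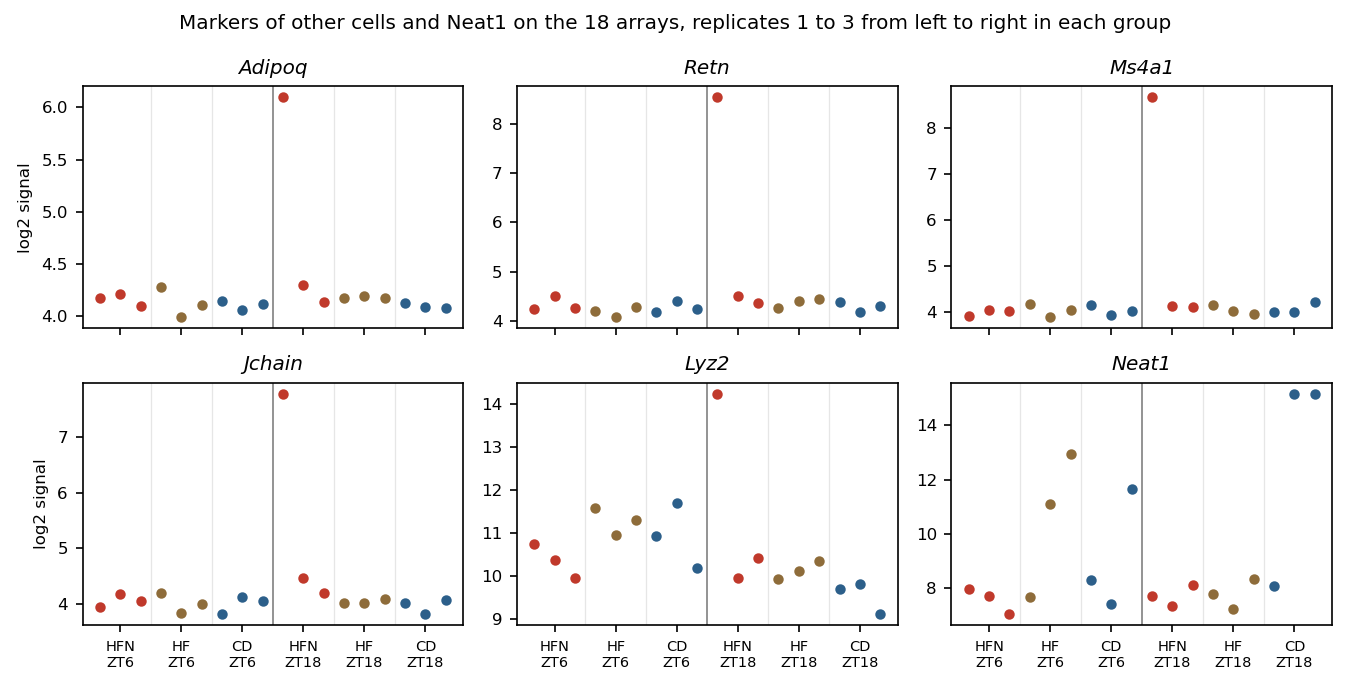
Log2 signal of 5 markers of fat and immune cells and of the nuclear RNA Neat1 on all 18 arrays, 1 point per liver, with HFN, HF and CD groups from left to right at ZT6 and then at ZT18. HFN replicate 1 at ZT18 alone holds Adipoq, Retn, Ms4a1 and Jchain above their level on the other arrays, and CD replicates 2 and 3 at ZT18 hold Neat1 at 15.14 and 15.16.

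A transcript cluster was called where limma's p-value, adjusted by Benjamini-Hochberg over every cluster tested, was under 0.05 and the log2 difference was over 0.32 in size. In all 698 clusters were called, or 1.06% of those tested. Of these, 551 were higher in HFN livers (0.835%) and 147 were lower (0.223%), and 78.9% of the calls were thus rises. The median difference over all transcript clusters was 0.02. The share of clusters above the 95th percentile of the array's negative controls was 12.3%, 12.8% and 12.4% on the HFN arrays. On the CD arrays it was 11%, 9.46% and 9.5%. Counts of list members above 0, given below, have no count over clusters of like brightness beside them. A shift shared by many bright transcripts can therefore not be told apart from one of the list. In 10006 clusters (15.2%) the 3 HFN and 3 CD values did not overlap, and this held for all 698 called ones. Without HFN replicate 1 the count was 1047, of which 537 were among the 698. Without both CD arrays of raised control signal it was 186, of which 87 were among the 698, and the rises then made up 59.1%. Leaving out any 1 array gave between 199 calls, without HFN replicate 3, and 2357, without CD replicate 1. A single gene symbol could be given to 544 of the called clusters (480 higher and 64 lower), 139 were not listed in the table of gene names, and 60 clusters differed by more than 4-fold (39 higher and 21 lower). Of 1190 small RNA genes tested, 11 passed, and 10 of those 11 were lower in HFN livers. Many calls were dim. In 267 called clusters, all 3 HFN and all 3 CD values lay under the 95th percentile of that array's negative controls, and in 99 more all 3 CD values did. For such genes, called dim below, the log2 difference is given as measured and can be taken at most as a direction. Where just 1 group was dim and the other rose clear of that percentile, a lower bound against it is added. In other genes dim in 1 group, the difference against that percentile had the opposite sign, as for Pnpla3 (-0.23), Acot4 (-0.28) and Adgrf1 (0.11). No bound was computed for cell type markers and for gene families outside the lists.

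The highest rise was that of Cyp4a14, an omega-hydroxylase of fatty acids and a standard PPARA target. It was 18.07, 18.32 and 19.11 in HFN livers and 11.53, 14.06 and 9.66 in CD livers, and the CD values spread widely below every HFN value. The log2 difference was 6.75 ± 0.849 (SE, n = 3 each), 107-fold, with an adjusted p of 0.00216 (limma). Cd36, which carries fatty acids across the plasma membrane, was 13.86, 13.52 and 14.41 in HFN livers and 8.27, 8.44 and 8.69 in CD livers. Both groups were tight for Cd36 and lay far apart, by 5.46 ± 0.516 (adjusted p = 0.000277). Cyp17a1, a steroid 17-alpha-hydroxylase, was 13.24, 13.46 and 13.79 in HFN livers against 7.97, 8.85 and 8.64 in CD livers, a difference of 5.01 (adjusted p = 0.00164). Mfsd2a, a transporter of lysophosphatidylcholine, was 14.12, 14.66 and 15.04 in HFN livers against 8.09, 10.36 and 10.57 in CD livers. Its CD values held 1 low array, and its difference of 4.94 passed (adjusted p = 0.0236) but did not pass without both CD arrays of raised control signal (6.52, adjusted p = 0.0654).

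**Figure D2:**
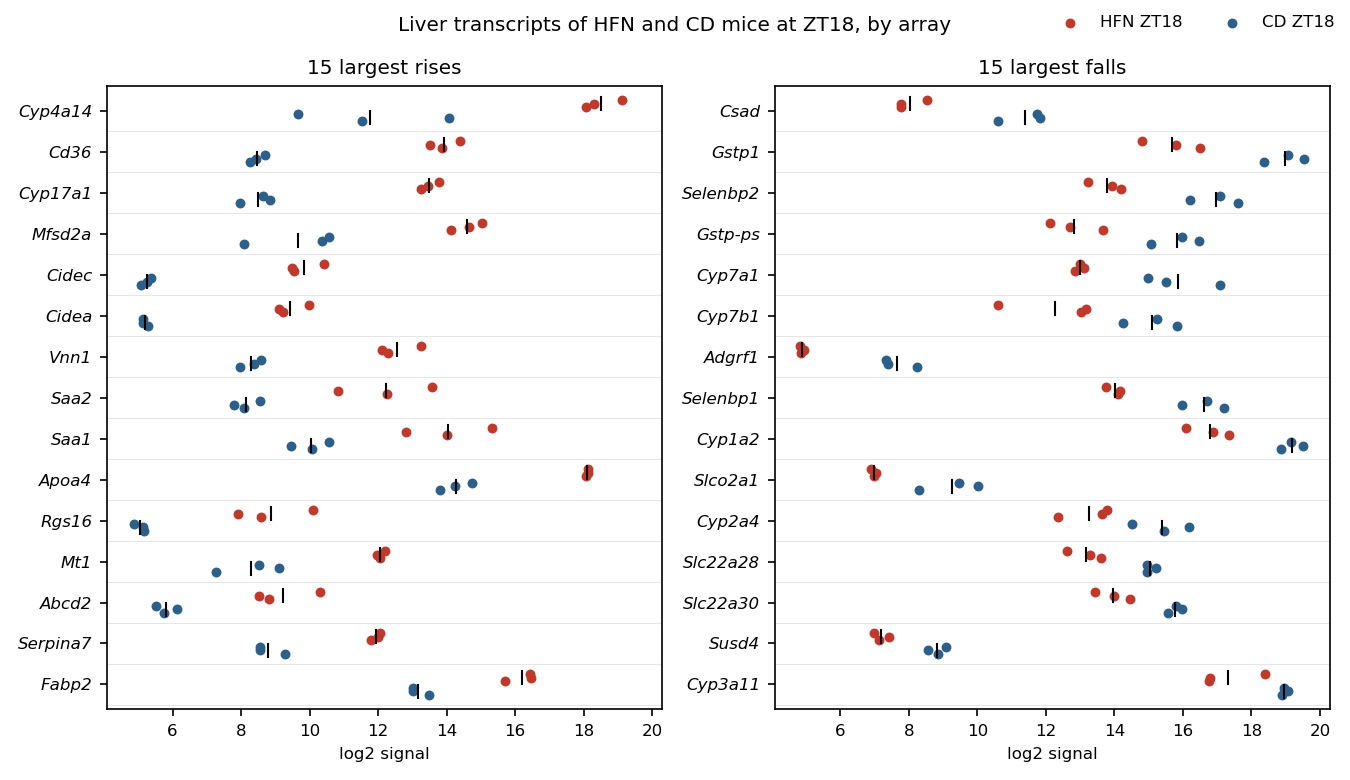
Log2 signal of the 15 largest rises and the 15 largest falls among named genes past the test, with HFN points above CD points in each lane, 1 point per liver and a black tick at each group mean (n = 3). The groups do not overlap in any lane, and the difference runs between 6.75 for Cyp4a14 and -3.38 for Csad.

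Among the Cyp4a fatty acid omega-hydroxylases, 3 of 8 measured members rose and none fell, with a list median of 0.70. Cyp4a32 and Cyp4a31 rose by 2.54 and 2.37 beside Cyp4a14, and the close similarity of these paralogs limits the assignment of signal to each. All 3 kept their call without HFN replicate 1 and without both CD arrays. Of 12 other PPARA-induced genes, 5 rose, and all 12 differences were above 0 (median 0.85). Vnn1, a pantetheinase that frees cysteamine and vitamin B5, was 12.30, 12.13 and 13.24 in HFN livers and 7.97, 8.36 and 8.58 in CD livers. The CD values of Vnn1 lay under the negative-control limit, so that HFN livers were at least 17.6-fold higher (adjusted p = 0.000267, limma). Retsat, a retinol saturase, rose by 1.66, the fatty aldehyde dehydrogenase Aldh3a2 by 1.27 and Tmem135 by 1.04, of which only Aldh3a2 passed without both CD arrays. Fgf21, a hepatokine of fasting and lipid load, passed with 0.85, but at 4.61, 4.93 and 5.01 in HFN livers and 4.02, 3.96 and 4.04 in CD livers it was dim on every array. Acyl-CoA thioesterases, which free fatty acids from coenzyme A, had 4 of 12 members higher, led by mitochondrial Acot2 at 10.91, 11.21 and 11.81 in HFN livers against 7.32, 9.40 and 8.85 in CD livers (2.79, adjusted p = 0.0141). Acot4, Acot13 and Acot5 rose by 1.31, 0.99 and 0.61, with dim CD values for Acot4 and dim values in both groups for Acot5. No thioesterase passed without HFN replicate 3.

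Mitochondrial fatty acid oxidation was the list with the most members called. Of 21 measured genes, 14 rose and none fell, 20 of 21 differences were above 0, and the list median was 0.73. Cpt1a, which admits long-chain fatty acids to the mitochondrion and sets the rate of their oxidation, was 14.81, 15.27 and 15.37 in HFN livers and 13.02, 13.57 and 13.52 in CD livers. Every HFN value of Cpt1a exceeded every CD value, by 1.78 ± 0.293 on average (adjusted p = 0.0104, limma), and by 2.13 without both CD arrays, where it did not pass (adjusted p = 0.0652). In the carnitine shuttle, Crat rose by 1.46, the carrier Slc25a20 by 1.21 and Cpt2 by 0.73. Slc25a20 (adjusted p = 0.0419, limma) lost its call under 16 of 30 alternatives. Without HFN replicate 3, Slc25a20 did not pass (1.03, adjusted p = 0.156), whereas Crat did (1.43, adjusted p = 0.0421). Of the oxidation spiral itself, the trifunctional protein subunits Hadhb and Hadha rose by 1.11 and 0.50, the isomerase Eci1 by 1.03, and the acyl-CoA dehydrogenases Acad11, Acadl and Acadm by 0.91, 0.74 and 0.73. Hadh, Decr1, Etfdh and Echs1 rose by 0.88, 0.90, 0.75 and 0.60. Counts in this list depended on single arrays more than the lead genes above: 16 of 21 rose without HFN replicate 1, 6 without HFN replicate 3 and 3 without both CD arrays of raised control signal.

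Peroxisomal genes gave 8 rises among 23 measured members and no fall (median 0.60). Abcd2, which imports very long-chain acyl-CoA into peroxisomes, was 8.83, 8.52 and 10.31 in HFN livers and 5.75, 6.12 and 5.52 in CD livers (3.43, adjusted p = 0.0169, limma). Its CD values were dim, and the HFN level was at least 1.74-fold higher. Without both CD arrays it differed by 3.47 and did not pass (adjusted p = 0.152). Pex11a, a factor of peroxisome division, rose by 1.59, the thiolase Acaa1b by 1.26, the bifunctional enzyme Ehhadh by 1.13, and the assembly factors Pex19 and Pex3 by 1.00 and 0.75. In ketogenesis, Bdh1, which makes beta-hydroxybutyrate, and the thiolase Acat1 rose by 0.99 and 0.84, 2 of 4 members measured. Peroxisomal calls numbered 10 without HFN replicate 1, 3 without HFN replicate 3 and 2 without both CD arrays.

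Genes of the lipid droplet differed in one direction throughout: all 22 measured members were above 0, 9 rose, and the median was 0.70. Plin2, the coat protein of hepatocyte droplets, was 15.26, 15.31 and 15.39 in HFN livers and 13.66, 13.97 and 13.93 in CD livers. The HFN values of Plin2 were tight and lay 1.47 ± 0.134 above CD in the mean (adjusted p = 0.000222, limma), and the call held under every alternative tried. Cidec and Cidea fuse droplets into larger ones. Cidec was 9.54, 9.50 and 10.43 in HFN livers and 5.09, 5.27 and 5.37 in CD livers, and Cidea was 9.23, 9.10 and 9.98 in HFN livers and 5.29, 5.13 and 5.13 in CD livers. Their CD signal lay under the 95th percentile of negative controls, which leaves HFN at least 2.65-fold higher for Cidec and 2.03-fold for Cidea (adjusted p = 0.00216 and 0.00953). Without both CD arrays neither passed, at 4.74 and 4.15 (adjusted p = 0.0503 and 0.133). Pnpla3, a droplet lipase induced by feeding, was 8.26, 8.54 and 7.77 in HFN livers against 5.33, 5.33 and 5.42 in CD livers (adjusted p = 0.00041). The CD values of Pnpla3 were dim and its HFN values lay near the limit, so that its measured difference of 2.83 gives at most a direction and no bound. The monoglyceride lipase Mgll rose by 1.33, Plin5, Plin4 and Plin3 by 0.99, 0.98 and 0.75, and the triglyceride synthase Dgat1 by 0.53. The list held 10 calls without HFN replicate 1, 5 without HFN replicate 3 and 3 without both CD arrays.

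Among 14 genes of fatty acid uptake and binding, Fabp2 and Acsl5 rose beside Cd36. Fabp2, a fatty acid binding protein best known from intestine, was 15.72, 16.47 and 16.43 in HFN livers and 13.49, 13.03 and 13.02 in CD livers (3.03 ± 0.246, adjusted p = 0.000134, limma). Apoa4, an apolipoprotein of intestine and fatty liver, was 18.08, 18.13 and 18.13 in HFN livers and 13.81, 14.24 and 14.74 in CD livers (3.85, adjusted p = 0.000374), and Mttp, which loads lipid onto apolipoprotein B, rose by 0.79. The 3 HFN and 3 HF values of Apoa4 at ZT18 all lay between 18.08 and 18.13, so its differences from CD can be read only as at least this large. Mttp did not pass without both CD arrays (0.68, adjusted p = 0.17).

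De novo lipogenesis had the highest median of all lists at 1.31, yet only 2 of its 13 members passed. Acaca, the acetyl-CoA carboxylase that commits carbon to fatty acids, was 12.39, 13.19 and 12.99 in HFN livers and 10.96, 11.08 and 11.12 in CD livers (1.80, adjusted p = 0.00237, limma). Fasn, the fatty acid synthase, was 15.44, 16.47 and 16.51 in HFN livers and 13.35, 14.59 and 13.76 in CD livers and only just passed (2.24, adjusted p = 0.0481), but did not pass without both CD arrays (2.80, adjusted p = 0.129). Me1, Gpam and Acly differed by 2.10, 1.76 and 1.71 without passing (adjusted p = 0.0508, 0.075 and 0.093), and Mlxipl, which encodes the carbohydrate-sensing factor ChREBP, by -1.62 (adjusted p = 0.27). Elongases and desaturases, which lengthen and unsaturate fatty acids, gave 5 rises among 11. Elovl6, which elongates palmitate, rose by 2.38, Elovl5 by 1.66, Fads2 by 1.54, Elovl2 by 1.28 and Fads1 by 0.96. Of these 5 calls 2, those of Elovl6 and Elovl2, held without HFN replicate 1, 2 calls were also made without HFN replicate 2 or 3, and 5 without both CD arrays.

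**Figure D3:**
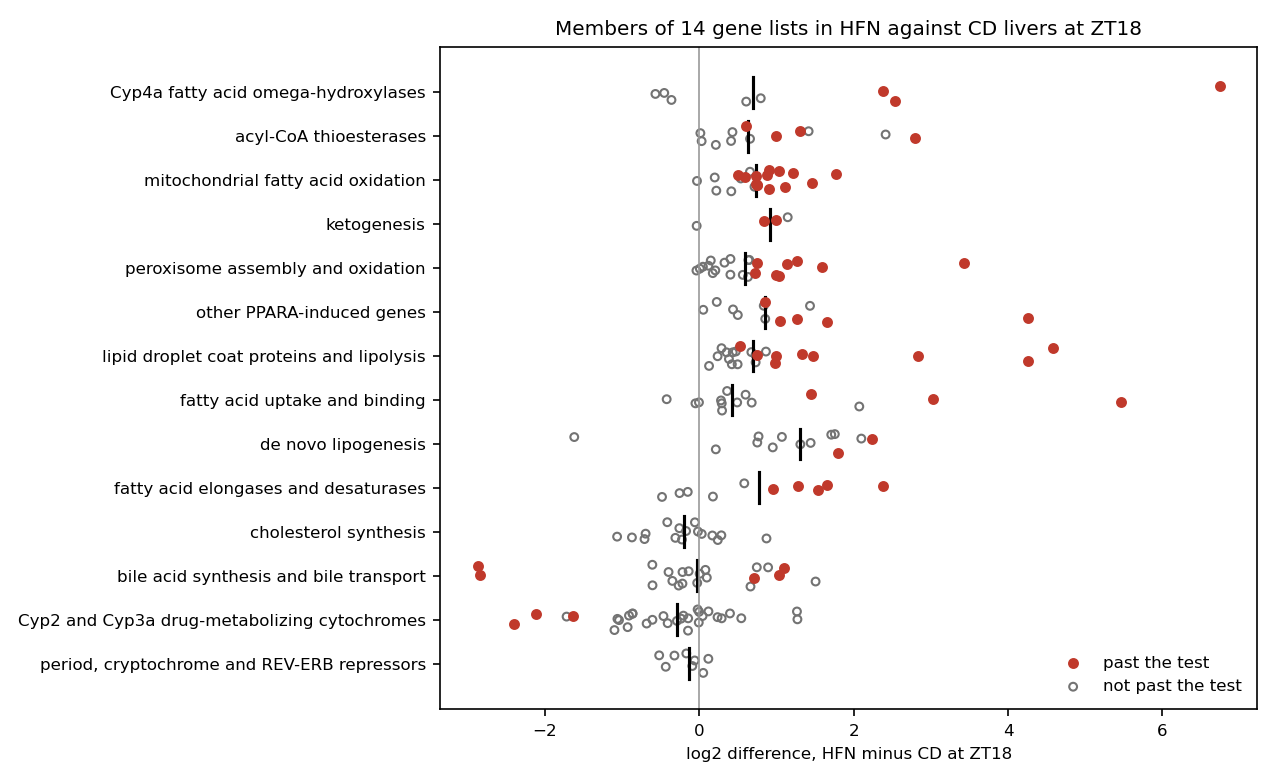
Log2 difference HFN minus CD at ZT18 of every measured member of 14 gene lists, 1 point per gene, filled red where it passed the test and open where it did not, with the list median as a black tick. In mitochondrial fatty acid oxidation 14 of 21 points are red and in lipid droplet genes 9 of 22, all right of 0, whereas no member of cholesterol synthesis passed.

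Cholesterol synthesis did not share the rise of fatty acid genes. None of 16 measured members passed, 11 were below 0, and the median was -0.20. Msmo1 and Sqle differed by -1.07 and -0.70 and Hmgcs1 by 0.87, none past the test (adjusted p = 0.162, 0.48 and 0.511, limma). Insig2, the endoplasmic reticulum protein that holds back SREBP processing, was the only one of 13 genes of sterol sensing and carriage to pass. It was 14.28, 14.57 and 14.95 in HFN livers and 12.02, 11.99 and 12.96 in CD livers (2.27 ± 0.326, adjusted p = 0.00462). Bile acid genes were called both ways, with 3 of 21 higher and 2 lower, but these calls rested on few arrays. They were 0 higher and 1 lower without HFN replicate 2, 0 and 0 without HFN replicate 3, and 1 and 1 without both CD arrays. Cyp7a1, the rate-limiting enzyme of bile acid synthesis, was 12.85, 13.11 and 12.98 in HFN livers and 17.07, 15.51 and 14.99 in CD livers. The HFN values of Cyp7a1 were close together and all under the lowest CD value, by 2.87 in the mean (-2.87 ± 0.537, adjusted p = 0.0202), and it did not pass without HFN replicate 3 (-2.88, adjusted p = 0.0819). Cyp7b1, of the alternative bile acid pathway, was 13.02, 13.17 and 10.61 in HFN livers and 15.84, 14.24 and 15.24 in CD livers (-2.84, adjusted p = 0.0439), and it lost its call under 16 of 30 alternatives. Klb, the co-receptor of FGF21 and FGF15, rose by 1.10, the sterol exporter Abcg5 by 1.03 and the bile acid importer Slc10a1 by 0.71. Slc10a1 was 18.18 on all 3 HFN arrays, a value shared by most arrays of the series, and 17.28, 17.96 and 17.18 on the CD arrays.

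Falls were fewer, and the largest were in enzymes of taurine synthesis, detoxification and bile acid synthesis. Csad, which makes hypotaurine for taurine synthesis, was 7.75, 7.76 and 8.54 in HFN livers and 10.61, 11.82 and 11.75 in CD livers (-3.38 ± 0.474, adjusted p = 0.00417, limma), and it did not pass without both CD arrays (-2.59, adjusted p = 0.127). Gstp1, a glutathione transferase, was 16.48, 15.79 and 14.79 in HFN livers and 18.37, 19.55 and 19.06 in CD livers (-3.30, adjusted p = 0.00906), and its pseudogene Gstp-ps, which shares sequence with it, fell by 3.01. Gstp1 did not pass without both CD arrays (-2.68, adjusted p = 0.173) or without HFN replicate 3 (-2.86, adjusted p = 0.0523), and neither did Gstp-ps (-2.23 and -2.65, adjusted p = 0.183 and 0.0511). The methanethiol oxidase Selenbp1 and its close paralog Selenbp2 fell by 2.62 and 3.18. Selenbp2 was 14.20, 13.94 and 13.24 in HFN livers and 17.61, 16.21 and 17.09 in CD livers. Of 32 drug-metabolizing cytochromes, 23 were below 0, 3 fell and none rose (median -0.29). Cyp1a2, which oxidizes caffeine, was 17.36, 16.87 and 16.10 in HFN livers and 18.85, 19.50 and 19.16 in CD livers (-2.40, adjusted p = 0.00216). Cyp2a4, a steroid hydroxylase, and Cyp3a11, the main target of the xenobiotic receptor PXR, fell by 2.12 and 1.64. Neither of these 2 passed without HFN replicate 1, at -1.66 and -1.36 (adjusted p = 0.0811 and 0.0725). Without both CD arrays none of the 3 passed, although Cyp1a2, Cyp2a4 and Cyp3a11 still differed by -2.07, -2.19 and -1.56 (adjusted p = 0.077, 0.138 and 0.24). The aldehyde oxidase Aox3 fell by 1.54 and the carboxylesterase Ces2a by 1.33. The steroid enzymes Akr1c14 and Hsd3b2 fell by 1.24 and 0.95, and the transporters Slc22a28, Slc22a30 and Slco2a1 by 1.86, 1.82 and 2.28. HFN values of Slco2a1 were dim, which leaves it at least 2.81-fold lower, and none of the 3 transporters passed without both CD arrays. Nor did Aox3, Ces2a and Hsd3b2, whereas Akr1c14, Selenbp1 and Selenbp2 did. Adgrf1, an adhesion G-protein coupled receptor, fell by 2.78 at dim HFN values of 4.86, 4.93 and 4.82, and did not pass without HFN replicate 1.

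Promoter sequence was set beside the calls for 3 motifs read by clock factors and PPARA, on both strands, in windows of 250 bases before to 50 after each gene start (RefSeq, GRCm38.p6). Of 114 called genes searched, 92 had a promoter in the table. The E-box CACGTG, bound by CLOCK and BMAL1, stood in 8 of the 108 promoters of these genes and in 7.15% of all promoters in the table. The 8 genes were all higher in HFN livers (Acot4, Aldh3a2, Bnip3, Elovl5, Fgf21, Khk, Mgll and Plin2). Rises also made up 480 of the 544 called clusters with 1 symbol. The D-box, read as TTATG, any 1 base and AA and bound by DBP, stood in 4 of the 108 and in 3.38% of all promoters. Of its 4 genes, C1ra, Cyp2a4 and Selenbp1 were lower and Slc10a1 higher. Direct repeats of the AGGTCA half-site with 1 base between, the form bound by PPARA, stood in none of the 108 and in 0.0396% of all promoters. A match describes the letters of the window and no more. The stretch of 1 gene that rose and 1 that fell is shown with its motif in capitals, Elovl5 at chr9:77917174-77917239 with the E-box 161 bases before the start and Selenbp1 at chr3:94933002-94933069 with the D-box 51 bases before the start, read on the opposite strand, and both genes lie on the plus strand.
Elovl5: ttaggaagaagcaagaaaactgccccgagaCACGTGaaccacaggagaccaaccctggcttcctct
Selenbp1: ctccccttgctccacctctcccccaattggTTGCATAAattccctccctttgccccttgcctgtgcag

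Clock genes gave almost no calls. None of 5 measured activators, none of 8 period, cryptochrome and REV-ERB repressors and 1 of 10 D-box and DEC outputs passed, with medians of 0.19, -0.13 and -0.09. Npas2, a partner of BMAL1, was nearest the threshold among them at 6.13, 6.05 and 6.40 in HFN livers and 4.85, 4.87 and 5.74 in CD livers (1.04, adjusted p = 0.0502, limma). Arntl and Clock differed by 0.04 and 0.19, and Per2, Cry2 and Nr1d1 by -0.52, -0.44 and 0.12, none past the test. The output gene that passed was Rgs16, a regulator of G-protein signalling, at 8.58, 7.92 and 10.10 in HFN livers and 5.15, 5.12 and 4.88 in CD livers (3.81, adjusted p = 0.026). Its CD values were dim, so that HFN was at least 1.36-fold higher, and it did not pass without HFN replicate 3 (3.20, adjusted p = 0.116) or without both CD arrays (3.71, adjusted p = 0.21).

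Genes that make or use NAD+ were also mostly without calls. In synthesis from tryptophan 1 of 10 genes passed. Acmsd, which diverts the pathway away from NAD+, was 7.31, 7.78 and 7.26 in HFN livers and 9.01, 9.01 and 9.23 in CD livers (-1.63 ± 0.204, adjusted p = 0.00209, limma). In salvage, consumption and nicotinamide clearance 1 of 21 passed, Nt5e, the ectonucleotidase CD73, at 6.75, 6.62 and 7.0 in HFN livers and 5.92, 5.70 and 5.67 in CD livers (1.03, adjusted p = 0.00281), under the negative-control limit on every array. Both groups of arrays were apart for each of these genes, and neither passed without both CD arrays. Nampt, the rate-limiting salvage enzyme, was 10.44, 10.97 and 11.20 in HFN livers and 11.31, 10.67 and 10.19 in CD livers, with overlapping groups (0.14).

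Acute phase transcripts and a metallothionein were high in HFN livers. Saa1 and Saa2, serum amyloid A proteins made by hepatocytes in the acute phase, are near-identical in sequence, which limits the assignment of signal to each. Saa1 was 14, 12.81 and 15.33 in HFN livers and 10.07, 9.47 and 10.58 in CD livers, and Saa2 was 12.26, 10.84 and 13.58 in HFN livers and 8.08, 7.79 and 8.56 in CD livers. The HFN values spread over more than 2 units but lay above all CD values, by 4.01 ± 0.768 for Saa1 and 4.09 ± 0.752 for Saa2 (adjusted p = 0.0232 and 0.0189, limma). Lcn2, the iron-siderophore binding lipocalin of innate defence, was 7.17, 6.96 and 7.29 in HFN livers and 5.22, 5.59 and 5.46 in CD livers (1.72 ± 0.206, adjusted p = 0.00168), under the negative-control limit on every array. Apcs, serum amyloid P, was 11.64, 12.26 and 12.34 in HFN livers and 10.18, 9.69 and 10.30 in CD livers (2.02, adjusted p = 0.00192). These 4 of 21 acute phase genes rose and none fell (median 0.28). Hp, Crp and Orm2 differed by 0.15, 0.12 and 0.87 without passing. Mt1, a metal-binding metallothionein, was 12.05, 11.96 and 12.20 in HFN livers and 7.26, 9.11 and 8.53 in CD livers (3.77 ± 0.548, adjusted p = 0.00493), and Mt2 was 9.24, 8.65 and 9.01 in HFN livers against 6.95, 7.66 and 7.0 in CD livers (1.77, adjusted p = 0.0612). HFN replicate 1, the array with the fat and immune markers, was neither the highest nor the lowest HFN array for any of Saa1, Saa2, Lcn2 and Mt1. Without it the differences were 4.03, 4.07, 1.70 and 3.78, and all 4 passed (adjusted p = 0.0406, 0.0357, 0.00421 and 0.0105). Without HFN replicate 3, Saa1 and Saa2 differed by 3.37 and 3.41 and no longer passed (adjusted p = 0.109 and 0.0908), and without both CD arrays they differed by 3.97 and 4.15 (adjusted p = 0.177 and 0.159).

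HF mice, on the same fat but with saline, give the side values for these genes. The comparison of HF with CD livers at ZT18 called 400 transcript clusters (0.606%), that of HFN with HF livers called 0 (0%, with 1851 at an unadjusted p under 0.05), and both share arrays with the comparison of HFN and CD. Mt1 was 12.05, 11.96 and 12.20 in HFN livers, 7.78, 8.74 and 8.62 in HF livers and 7.26, 9.11 and 8.53 in CD livers. HF minus CD was 0.08 for Mt1, and HFN minus HF was 3.69 (adjusted p = 0.194, limma). Lcn2 was 7.17, 6.96 and 7.29 in HFN livers, 5.26, 5.74 and 6.01 in HF livers and 5.22, 5.59 and 5.46 in CD livers, with HF minus CD at 0.25 and HFN minus HF at 1.47 (adjusted p = 0.194). Saa1 was 10.10, 10.20 and 10.99 in HF livers, and its HFN minus HF difference was 3.61 (adjusted p = 0.644). HF minus CD was 0.39 for Saa1 and 0.64 for Saa2. Genes of lipid handling were placed otherwise, with Cyp4a14, Cd36, Cyp17a1, Apoa4 and Plin2 at 5.62, 5.15, 5.35, 3.86 and 1.68 in HF minus CD, beside 6.75, 5.46, 5.01, 3.85 and 1.47 in HFN minus CD. The 2 values for Apoa4 are limited by its plateau and do not compare HFN with HF livers. Pnpla3 was 8.26, 8.54 and 7.77 in HFN livers, 9.67, 8.99 and 8.88 in HF livers and 5.33, 5.33 and 5.42 in CD livers. Its HFN values lay between those of the other groups, the dim CD values included (HFN minus HF -0.99, adjusted p = 0.823). Cyp3a11 differed by -0.80 in HF minus CD and by -1.64 in HFN minus CD. In the lists, HF minus CD called 9 genes of mitochondrial fatty acid oxidation and 9 of lipid droplets.

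**Figure D4:**
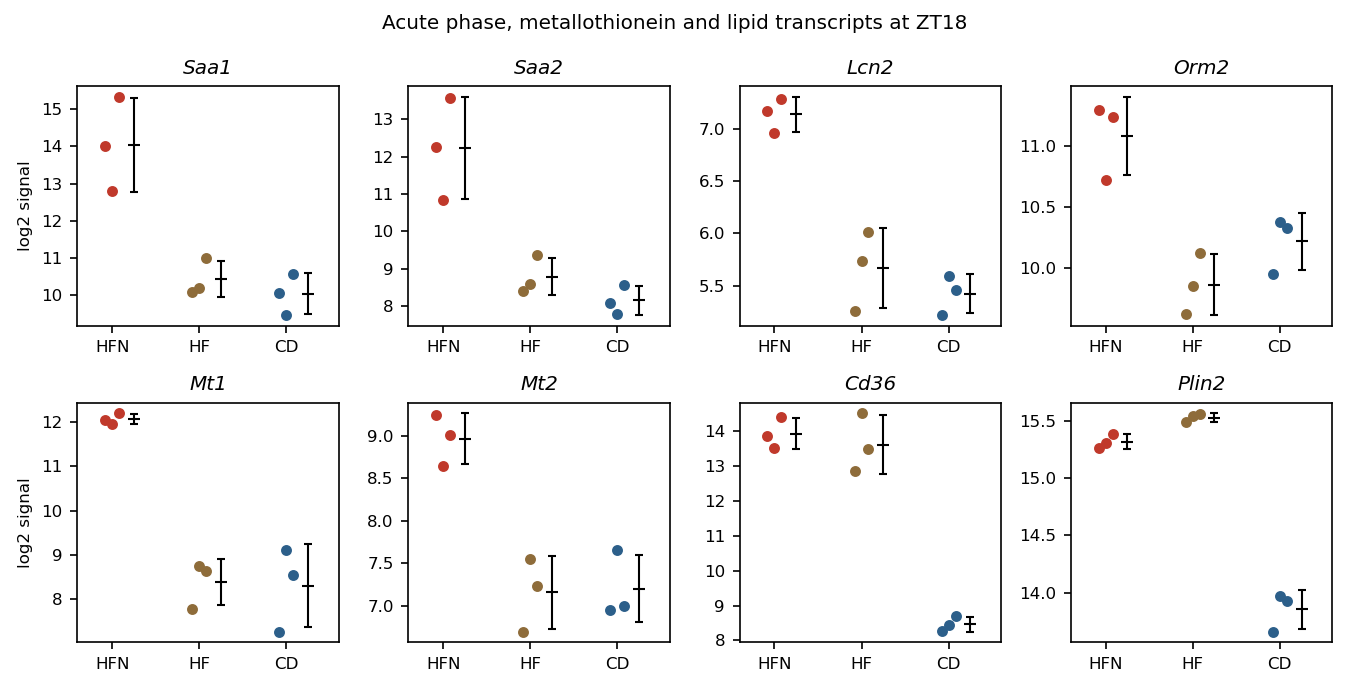
Log2 signal at ZT18 of 6 acute phase and metallothionein genes and of Cd36 and Plin2 in HFN, HF and CD livers, 1 point per liver, with the mean and SD beside the points (n = 3 each, a separate vertical scale in each panel). Mt1 is 11.96 to 12.20 on the 3 HFN arrays and at most 9.11 on the HF and CD arrays, whereas Cd36 and Plin2 are high in both HFN and HF livers.

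Growth arrest, vesicle transport and immune receptor genes also held calls. Cdkn1a, the cell cycle inhibitor p21, was 8.56, 9.50 and 9.79 in HFN livers and 5.99, 6.05 and 7.20 in CD livers (2.87, adjusted p = 0.00849, limma), at least 1.82-fold, since the CD values were dim, and it missed the threshold without both CD arrays (3.30, adjusted p = 0.0508). Cyclin G1 (Ccng1) rose by 1.56, and these were 2 of 14 genes of growth arrest and p53 targets. Of 33 Rab GTPases, which direct vesicle traffic, 29 were above 0 and Rab1b, Rab6a and Rab10 rose by 0.95, 0.63 and 0.46. Coat and ER-Golgi transport genes were above 0 in 28 of 30 members with 1 rise, Copa at 0.52, and ESCRT subunits in 21 of 25 with 2 rises, Vps28 at 0.53 and Stam2 at 0.50. The share above 0 among transcripts of like brightness was not computed. Medians of these 3 lists were 0.24, 0.36 and 0.20, and no member of them passed without both CD arrays of raised control signal, where Rab1b, Rab6a, Rab10, Copa, Vps28 and Stam2 differed by 1.32, 0.56, 0.29, 0.44, 0.69 and 0.43. Bnip3, a mitophagy receptor, rose by 0.91, the respiratory subunits Sdhd and Uqcrc2 by 0.85 and 0.59, and the ribosomal protein gene Rps20 by 0.47. The receptors Tgfbr2, Ifngr2 and Ifnar1 rose by 0.86, 0.56 and 0.46, with dim CD values for Tgfbr2 and Ifngr2 as for Stam2, and the complement genes C2 and C1ra fell by 1.21 and 0.97. Without HFN replicate 1, Ccng1, Rab10, Vps28, Rps20, Ifngr2 and C1ra did not pass (adjusted p = 0.0865, 0.0567, 0.0501, 0.0927, 0.0552 and 0.0855, limma). Without both CD arrays, Ccng1, Bnip3, Sdhd, Uqcrc2 and Rps20 differed by 0.93, 0.77, 0.75, 0.32 and 0.36. Tgfbr2, Ifngr2, Ifnar1, C2 and C1ra differed there by 1.01, 0.51, 0.24, -1.22 and -0.57. In carbohydrate metabolism 4 of 17 genes rose, in that fructokinase Khk, the pyruvate dehydrogenase subunit Pdha1, the glucose-6-phosphate carrier Slc37a4 and the kinase Pdk1 differed by 1.33, 1.14, 0.97 and 0.76. None of the 17 passed without HFN replicate 3 or without both CD arrays, and Khk (adjusted p = 0.0499) lost its call under 19 of 30 alternatives. The secreted thyroxine carrier Serpina7 rose by 3.15, at 11.79, 11.99 and 12.06 in HFN livers against 9.29, 8.54 and 8.54 in CD livers (without both CD arrays 2.65, adjusted p = 0.0624), and Enho, which encodes adropin, fell by 1.21 at dim values.

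Genes that the study itself names for NAD+-treated livers at night numbered 27 on the arrays. Of these, 8 rose and none fell (Mt1, Acaca, Lcn2, Plin2, Rab1b, Rab6a, Vps28 and Rab10), with a median of 0.53. The study chose them on these arrays, so their direction is no independent evidence, and it named many of them for HFN set against HF livers, which is another comparison than that with CD livers. In that comparison the study gives Acaca as lower in HFN livers and Plin2 as recovered towards chow levels. HFN minus HF had a median of -0.25 over the same 27 genes, and none of them passed in it. Without HFN replicate 1 there were 7 rises, and without both CD arrays 4.

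Markers of other cell types were mostly without calls. All 9 measured lymphocyte markers were above 0 (median 0.63), with a summed linear signal of 164.6 to 1093 in HFN livers and 164.4 to 167.2 in CD livers, and the high end belonged to HFN replicate 1. Without that array the lymphocyte median was 0.01. Of 15 Kupffer cell and macrophage markers, 13 were above 0 (median 0.42), with sums of 5200 to 24710 in HFN livers and 3120 to 5755 in CD livers. Lyz2, which HFN replicate 1 held far above the other HFN arrays, is in this list. Without that array the macrophage median was 0.30. Neither list held a called gene. Lyve1, a receptor of sinusoidal endothelium, was 9.17, 8.52 and 10.14 in HFN livers and 6.99, 7.18 and 6.92 in CD livers (2.25, adjusted p = 0.0252, limma). The CD values of Lyve1 were dim, so its difference can be taken at most as a direction. Lyve1 was the only one of 9 endothelial markers to pass, and its HF minus CD difference was 0.43. Rgs5, a pericyte gene, was the only one of 12 stellate cell and fibroblast markers to pass (0.86, adjusted p = 0.0288), and it did not pass without HFN replicate 1. Neither Lyve1 nor Rgs5 passed without HFN replicate 3 or without both CD arrays of raised control signal. Hepatocyte markers were present at high level, with Alb at the ceiling of the scale on all arrays and 5 of 10 measured markers at 1 value throughout. The 5 markers that varied (Tdo2, Cps1, Hnf4a, Cyp2f2 and Hal) all had lower means in HFN livers, with differences between -0.18 for Cps1 and -1.42 for Hal (median -0.36), and none passed.

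At ZT6 the same comparison of HFN with CD livers called 21 transcript clusters (0.0318%), and 20 of them were also called at ZT18. It uses 6 other arrays. Of the 551 clusters called higher at ZT18, 481 (87.3%) were also above 0 at ZT6, where 17 were called, and of the 147 called lower 120 (81.6%) were below 0. Over all 65874 clusters that vary, 58.1% had the same direction at both times. The median difference of the called rises was 0.73 at ZT18 and 0.20 at ZT6. These transcripts were chosen by their ZT18 difference, so the sizes are given without a test. The test of the ZT18 difference against the ZT6 difference called 0 clusters (0%, lowest adjusted p = 0.337, limma, with 3217 at an unadjusted p under 0.05). Some of the largest rises had a similar value by day, as with Cyp4a14 at 6.44, Cyp17a1 at 4.82 and Fabp2 at 2.61, all called at ZT6, and Mfsd2a at 4.86, which was not (adjusted p = 0.16). Other genes had smaller values by day and were not called there. Mt1 differed by 0.07 at ZT6, with 9.26, 9.23 and 9.70 in HFN livers and 8.37, 8.70 and 10.91 in CD livers, Cdkn1a by 0.12, Insig2 by 0.39 and Cyp7a1 by -0.62. The value of 10.91 came from CD replicate 3 at ZT6, an array with a negative-control median of 4.95 and Neat1 at 11.64. The other CD values of Mt1 lay below every HFN value, so that the small mean difference at ZT6 rests on that array. The difference between times had its lowest p-values in Ppp2r1b, a scaffold subunit of protein phosphatase 2A (0.90), and Nt5e (1.17), each with an adjusted p of 0.337 (limma). At ZT18 the CD values of Ppp2r1b were dim, and so were both groups of Nt5e.

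**Figure D5:**
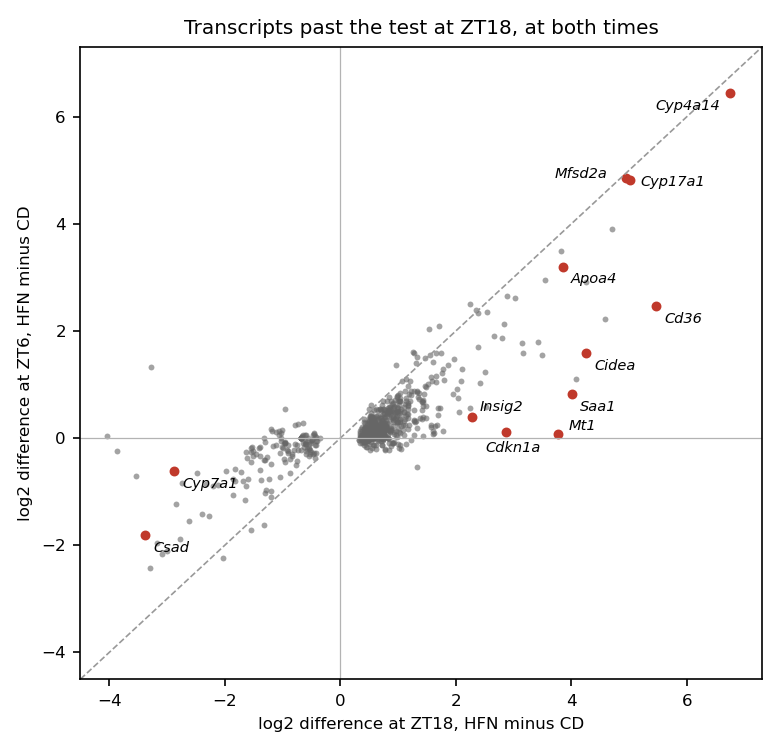
Log2 difference HFN minus CD at ZT18 (horizontal axis) and at ZT6 (vertical axis) of the 698 transcript clusters called at ZT18, 1 point per cluster, with the dashed line marking equal differences and 12 named genes in red. Cyp4a14, Cyp17a1 and Mfsd2a lie near the line, and Mt1, Cdkn1a and Insig2 lie far below it.

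Other lists held no called gene. They were phospholipid synthesis (14 measured, median 0.14), glycogen metabolism (11, 0.22), insulin, AMPK and mTORC1 signalling (27, 0.08), heat shock chaperones (15, 0.11), mitochondrial proteases and chaperones (12, 0.17), endoplasmic reticulum chaperones (21, -0.01), glutathione synthesis and NRF2 targets (16, 0.22), immediate early factors (13, 0.07), proteasome subunits (30, 0.34), interferon-stimulated genes (21, 0.18), urea cycle and amino acid catabolism (16, -0.02) and hepatocyte identity factors (12, -0.11). Proteasome subunits were above 0 in 29 of 30 members and oxidative phosphorylation subunits in 29 of 29, again with no share among transcripts of like brightness beside them. Of those respiratory subunits 2 rose, with a list median of 0.27. Without both CD arrays the 2 medians were 0.156 and 0.158, with no call in either list.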

How the data were processed

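The authors hybridised liver RNA, extracted with TRIzol and cleaned on RNeasy columns, to Mouse Clariom D arrays and deposited log2 signals made in the Transcriptome Analysis Console with default settings. Probe summarisation and the array design's genome build: not given in the sources used here. In the table of 72688 entries, 6732 control probe sets were left out and 65956 transcript clusters tested. Gene symbols came from the platform annotation (31292 clusters with 1 symbol, 1522 with several and not named, 33142 not listed). A single linear fit of the 6 group means used all 18 arrays (limma 3.58.1, R 4.3.3, 12 residual degrees of freedom), with Benjamini-Hochberg adjustment over all clusters. Named genes were the 15 largest rises and falls past the test with non-overlapping groups, up to 4 members of each list, the study's own genes and the lowest p-values of the side comparisons. Other list members are named as examples, chosen after their values were seen. The members, the 50 gene lists and the 12 marker lists were chosen with earlier results of these data known. Alternatives covered normalization, filters, fold minimum, covariates, the replicate block and leaving out arrays; leaving out both CD arrays was added after seeing the data. The number of arrays limits the precision.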

Additional observations from a re-analysis of the deposited data

How the results depend on the processing

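The count of 698 for HFN against CD at ZT18 was 6593 without adjustment, 3298 with array quality weights (59.2% rises), 205 with negative-control signal as a covariate, 186 without both CD arrays of raised control signal and 25 with the 6 compared arrays fitted alone; leaving out 1 array gave 199 (HFN ZT18 replicate 3) to 2357 (CD ZT18 replicate 1, 51.0% rises). Quantile normalization gave 489, median centring 831, an intensity trend with robust prior 469, the brighter clusters alone 1041, a 1.3-fold minimum 679 and none 707. HF against CD gave 5847 without adjustment, 676 centred, 5188 weighted, 138 with the covariate, 67 without both CD arrays, 622 for brighter clusters, 46 fitted alone and 105 to 3256 leaving out 1 array. HFN against CD at ZT6 gave 1398 without adjustment, 41 with the replicate block, 0 fitted alone and 6 to 35 leaving out 1 array; HFN against HF gave 1851, 2 weighted, 2 with the covariate and 0 to 4; the difference between times gave 3217, 3 without both CD arrays and 0 to 4. With the replicate block, HFN against CD at ZT18 gave 707, and 6 of 97 called named genes lost their call (Acat1, Abcg5, Bnip3, Sdhd, Uqcrc2 and C1ra); deviations of same-numbered arrays correlated at -0.20 to -0.05, so the arrays share only a number. The cause of these shifts was not tested. Of the 97, 84 lost their call with the compared arrays alone, 65 without both CD arrays and 54 without HFN ZT18 replicate 3, and 9 kept it in all alternatives run (Cd36, Cyp17a1, Vnn1, Apoa4, Fabp2, Pnpla3, Plin2, Lcn2 and C2). No called named gene changed sign. Uncalled ones did: Cry2 (0.014), Per2 (0.0062), Hmgcs1 (-0.0001), Abhd5 (-0.0946) and Psma3 (-0.0757) with the covariate; Abhd5 (-0.1715) and Psma3 (-0.4869) without both CD arrays; Chka (-0.0293) and Psma4 (0.0031) with quantile normalization; Psma4 with centring (0.0021); Chka (-0.0244), Stard4 (0.0717) and Psma4 (0.1355) with weights; and, when 1 array was left out, Acsm1 (-0.0925 to 0.0113), Chka (-0.0767 to 0.2148), Stard4 (-0.3805 to 0.0242) and Psma4 (-0.0814 to 0.1415).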

Other observations

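Gene families outside the lists were looked at after their calls were seen, so the counts carry no test. Of 7 measured subunits of the conserved oligomeric Golgi (COG) complex, which tethers vesicles at the Golgi, all were above 0 and 4 were higher in HFN than in CD livers at ZT18, Cog4 by 0.98, Cog3 by 0.65, Cog5 by 0.64 and Cog6 by 0.53. Of 11 annexins, calcium-dependent membrane binding proteins, 5 were higher, Anxa5 by 1.69, Anxa2 by 1.17, Anxa7 by 0.81, Anxa6 by 0.50 and Anxa8 by 0.42. The family median of 0.59 was the value of Anxa3, which was not called. Anxa3 was 7.11 on HFN replicate 1, the array with the fat and immune markers, and 5.89 and 6.04 on the other HFN arrays. HF minus CD was 1.61, 1.26, 0.63, 0.22 and 0.19 for the 5 called annexins in the same order. It was 0.91, 0.40, 0.50 and 0.50 for Cog4, Cog3, Cog5 and Cog6. Among 15 subunits of protein phosphatase 2A, 4 were higher, Ppp2r1b by 0.96, Ppp2r1a by 0.75, Ppp2r2d by 0.52 and Ppp2r5c by 0.47, and among 29 sorting nexins 3 were, Snx9, Snx2 and Snx6. No member of these families was called lower. Over all clusters tested, 0.835% were called higher and 0.223% lower. Values without single arrays are not given for these families. Anxa2, Anxa8 and Ppp2r2d were dim in both groups, and the CD values of Ppp2r1b and Ppp2r5c were dim. Their differences can be taken at most as a direction. In HFN against HF livers at ZT18, the lowest p-values after Lcn2 and Mt1 were those of the immediate early factor Jun (-0.60), the zinc transporter Slc39a13 (0.36) and the acid-sensing receptor Gpr65 (0.71), none of which passed (adjusted p = 0.34, 0.447 and 0.45, limma).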
